A study of Rattus norvegicus with 10 samples.

Results

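The genes described here mark the stroma and the vessels of the choroid plexus, the folded tissue of the brain ventricles that secretes cerebrospinal fluid. The list held 10 genes: the collagen genes COL1A1, COL1A2, COL3A1 and COL4A1, the matrix genes DCN, SPARC, MGP and LAMC1, and the vascular genes PLVAP and RGS5. A gene was taken where its symbol stood beside an Ensembl identifier in the study's gene tables, and 6 of the 10 genes were found that way, out of 32883 genes listed in each rat. The 4 collagen genes were not analysed here. All 6 genes found passed the minimum mean level of 1 that was set for testing.

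RNA sequencing covered 10 female Wistar rats at 27 weeks of age, 5 fed the nutrient source-matched control diet and 5 fed the high fat diet (HFD) for several months. Each library held the choroid plexus of 1 rat, with the tissue of the lateral and the 4th ventricles together and no pooling of animals. Rats had to meet body weight limits to be used, per the study's methods. The comparison addressed whether the HFD altered transcription in the tissue that produces cerebrospinal fluid.

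Beneath the secretory epithelium, the choroid plexus holds a loose connective tissue with fibroblasts, immune cells and wide, leaky capillaries. Fibroblasts lay down collagens and the proteoglycans and glycoproteins that bind them, while laminins build the basement membranes under the epithelium and around the vessels. The capillaries are fenestrated, their pores are closed by thin diaphragms, and pericytes cover them from outside.

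Promoter sequences were read from RefSeq on the build GRCr8, for the 250 bases before the start of each gene. The table held 4 of the 6 genes and had no entry for DCN or MGP. The 3 printed here belong to the vascular pair, RGS5 and PLVAP, which lay farthest of the 6 from the other animals in the rescaled values of control rat 1, and to LAMC1, the one laminin gene of the 6. Capitals mark every match to the GC box (GGGCGG, or CCGCCC on the other strand) and to the TATA box (TATAAA, on the strand of the gene only). Each sequence runs 5′ to 3′ along its gene.
RGS5 at chr13:84380827-84381076 on the plus strand: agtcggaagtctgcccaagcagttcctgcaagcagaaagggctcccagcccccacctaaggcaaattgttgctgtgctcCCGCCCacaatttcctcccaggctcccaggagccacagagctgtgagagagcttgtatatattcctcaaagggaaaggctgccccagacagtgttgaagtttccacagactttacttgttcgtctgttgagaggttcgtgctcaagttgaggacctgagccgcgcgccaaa
PLVAP at chr16:18231280-18231529 on the minus strand: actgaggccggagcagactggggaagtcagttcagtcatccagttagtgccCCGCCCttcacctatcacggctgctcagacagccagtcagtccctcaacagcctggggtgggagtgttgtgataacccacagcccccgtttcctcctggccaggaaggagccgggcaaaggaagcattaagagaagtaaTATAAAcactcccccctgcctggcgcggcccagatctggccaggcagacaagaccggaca
LAMC1 at chr13:68051987-68052236 on the minus strand: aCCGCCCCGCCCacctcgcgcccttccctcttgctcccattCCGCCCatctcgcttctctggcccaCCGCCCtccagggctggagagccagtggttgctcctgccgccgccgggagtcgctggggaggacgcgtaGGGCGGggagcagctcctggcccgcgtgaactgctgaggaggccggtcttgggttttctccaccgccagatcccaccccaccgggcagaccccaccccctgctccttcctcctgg

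The promoter of PLVAP held a TATA box that began 60 bases before the start, a motif found in 8.06% of the 33469 promoter windows of this length. LAMC1 held 5 GC box matches, of which the farthest began 249 bases and the nearest 115 bases before the start, with the 2 farthest sharing a base. PLVAP and RGS5 held 1 GC box match each, at 199 and 171 bases, and 30.5% of all windows held at least 1. SPARC held neither motif. No CCAAT box (CCAAT or ATTGG, in 34.0% of windows) and no CArG box (in 1.5% of windows) was found in the 4 windows. The GC content was 71.2% in LAMC1, 60.0% in SPARC, 59.2% in PLVAP and 54.4% in RGS5, beside a median of 51.2% over all windows. These matches describe the letters of the windows and not sites of binding.

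The levels are given as TPM, each gene's share of all transcripts after correction for transcript length, so that levels can be set side by side between genes. A scaling factor for each rat, the median ratio of its genes to their geometric mean over all rats, was divided out, which gave the rescaled TPM. The study's methods give a sequencing output but TPM carry no read numbers, so the reads behind each library's values are not known here. Control rat 1 stood apart: its scaling factor was 0.745 against 0.944 to 1.13 in the other rats, and in it 15.0% of genes were more than 2-fold away from the others' median, whereas in each other rat 1.41% to 1.90% were. The comparisons of the 6 genes are therefore given with and without it. Transthyretin (TTR), the most abundant product of the choroid plexus epithelium, was at a mean of 364485 rescaled TPM in control rats and 334001 in HFD-fed rats, so the defining marker of the labelled tissue was present. Since this is bulk tissue, fewer cells of a type and less RNA per cell cannot be told apart.

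None of the 6 genes differed between the diets past the threshold. In limma with all rats, 0 of the 6 had an unadjusted p under 0.05, against 8.94% of the 12198 genes tested, which were 1090 genes. After Benjamini-Hochberg adjustment, limma called 0 genes in all. The groups overlapped for each of the 6 genes, whereas every HFD-fed rat lay above every control rat for 1.24% of genes and below for 2.32%. The median log2 fold change of the 6 genes was 0.09, beside 0.01 over all genes tested, and 0.08 beside -0.01 without control rat 1. Fold changes are HFD over control on the log2(rescaled TPM + 0.1) scale.

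**Figure D1:**
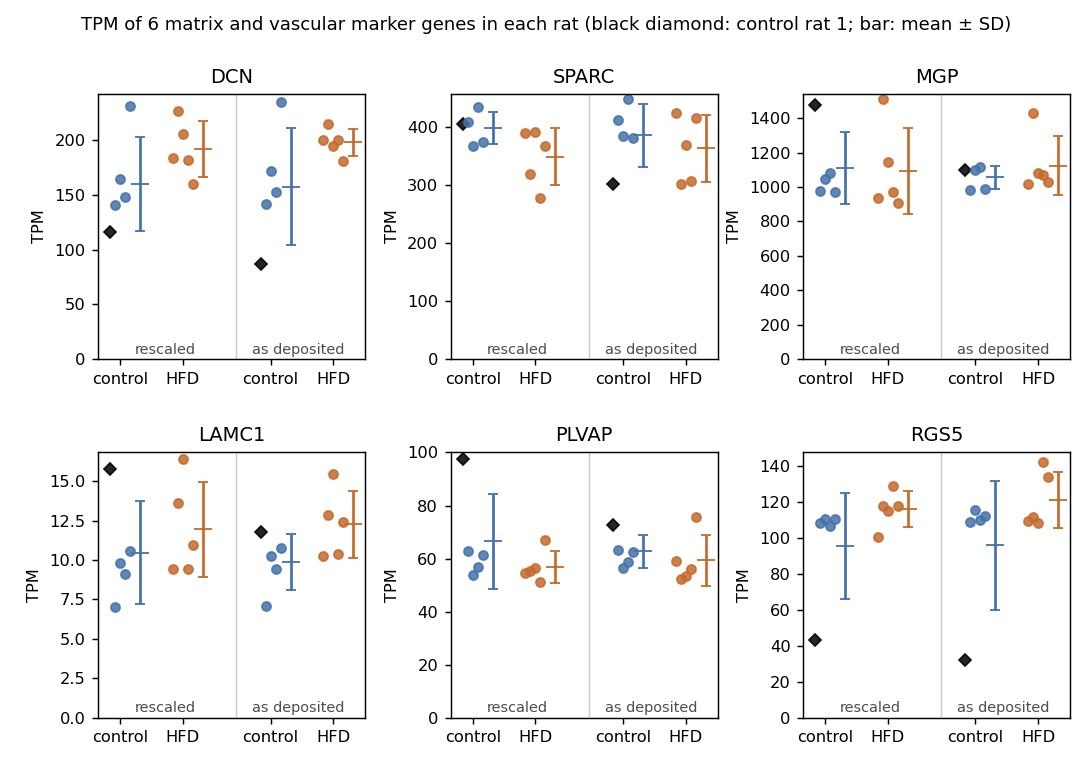
TPM of the 6 genes in each rat by diet, rescaled on the left and as deposited on the right of each panel, with bars for the mean and SD of each group and a black diamond for control rat 1. In the rescaled values it lies above the other control rats for MGP (1476), LAMC1 (15.8) and PLVAP (97.7) and below them for DCN (117) and RGS5 (42.9), and the diets overlap for every gene.

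Among the matrix genes, DCN encodes decorin, a small leucine-rich proteoglycan that binds collagen fibrils. Its identifier is ENSRNOG00000004554. It measured 117, 140, 164, 148 and 231 rescaled TPM in control rats 1 to 5 and 184, 227, 206, 182 and 160 in HFD-fed rats 1 to 5. All 5 HFD-fed rats lay above the control median of 148, but control rat 5 had the highest level of all rats, so that the groups overlapped. The means were 160.0 ± 43.2 in control rats and 192 ± 25.5 in HFD-fed rats (SD, n = 5 each), and the log2 fold change was 0.29 with an SE of 0.17 and a 95% interval from -0.08 to 0.65. The difference was within the spread between rats (limma with Benjamini-Hochberg adjustment, adjusted p = 0.575) and the exact permutation test, two-sided, gave p = 0.167, with 0.00794 the smallest p that 5 against 5 rats allow. Without control rat 1 the log2 fold change was 0.18, with an interval from -0.14 to 0.51 (limma, Benjamini-Hochberg adjusted p = 0.647; exact permutation test, two-sided, p = 0.325). With control rat 5 left out instead it was 0.43, with an unadjusted limma p of 0.00618 and a Benjamini-Hochberg adjusted p of 0.474.

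SPARC (ENSRNOG00000012840) encodes a secreted glycoprotein that binds collagen and takes part in its assembly. Its levels were 405, 409, 367, 434 and 373 rescaled TPM in the control rats and 390.0, 319, 391, 278 and 366 in the HFD-fed rats. No HFD-fed rat reached the control median of 405, and HFD-fed rats 2, 4 and 5 lay below every control rat, though rat 5 by a small margin. HFD-fed rats 1 and 3 lay among the control rats, so the groups overlapped. SPARC averaged 398 ± 27.6 in control rats and 349 ± 49.3 in HFD-fed rats (SD, n = 5 each), and the log2 fold change was -0.20 with an interval from -0.42 to 0.03. This did not pass limma's threshold (Benjamini-Hochberg adjusted p = 0.559), and the exact permutation test, two-sided, gave p = 0.0952. Leaving out control rat 1 left the log2 fold change at -0.19 (limma, Benjamini-Hochberg adjusted p = 0.495; exact permutation test, two-sided, p = 0.159), while TPM as deposited gave -0.09. Its unadjusted limma p was 0.0464 without HFD-fed rat 1 and 0.0457 without HFD-fed rat 3, where the Benjamini-Hochberg adjusted p was 0.676 and 0.712. The positions of the rats depended on the scaling. In TPM as deposited, HFD-fed rats 1 (423) and 5 (415) lay above the control median of 384, and the other HFD-fed rats lay below it.

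MGP, matrix Gla protein, is a small matrix protein that inhibits calcification, and it was the most abundant of the 6 genes (ENSRNOG00000005695). Control rats 1 to 5 had 1476, 974, 1050, 1081 and 970 rescaled TPM, and HFD-fed rats had 937, 1510, 1147, 969 and 907. The highest 2 values came from opposite diets, HFD-fed rat 2 and control rat 1, and the remaining rats of both diets overlapped. Means were 1110 ± 210 in control rats and 1094 ± 250 in HFD-fed rats (SD, n = 5 each), with a log2 fold change of -0.03 and an interval from -0.38 to 0.32. The sign turned with the processing, to 0.08 without control rat 1 and to 0.08 with TPM as deposited. Neither limma (Benjamini-Hochberg adjusted p = 0.94) nor the exact permutation test, two-sided (p = 0.833), passed the threshold, and without control rat 1 they gave 0.86 and 0.762.

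LAMC1 (ENSRNOG00000002680) encodes the gamma-1 chain shared by most laminins of basement membranes, and it had the lowest level of the 6 genes. It measured 15.8, 7.03, 9.82, 9.12 and 10.6 rescaled TPM in the control rats and 9.45, 13.6, 16.4, 9.41 and 10.9 in the HFD-fed rats. HFD-fed rats 2, 3 and 5 lay above control rats 2 to 5, HFD-fed rats 1 and 4 lay among these, and control rat 1 was second only to HFD-fed rat 3. The means were 10.5 ± 3.27 and 12.0 ± 3.01 (SD, n = 5 each), and the log2 fold change was 0.21 with an interval from -0.27 to 0.69 (limma, Benjamini-Hochberg adjusted p = 0.683). Without control rat 1, the control mean was 9.14 ± 1.53 (SD, n = 4) and the log2 fold change 0.37, with an interval from -0.03 to 0.76 and an exact permutation test, two-sided, of p = 0.151. With TPM as deposited and control rat 1 left out, the log2 fold change was 0.39 with an interval from 0.06 to 0.71 and an unadjusted limma p of 0.0254, and the Benjamini-Hochberg adjusted p was 0.653. In that comparison LAMC1 was 1 of 6 genes past the unadjusted threshold, against 7.12% of all genes. It was 0.08 without control rat 2 and 0.085 without HFD-fed rat 3 in rescaled TPM with the other rats kept. LAMC1 was taken from the study's own list of genes called different between the diets in these same rats, so its difference here is no independent evidence.

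**Figure D2:**
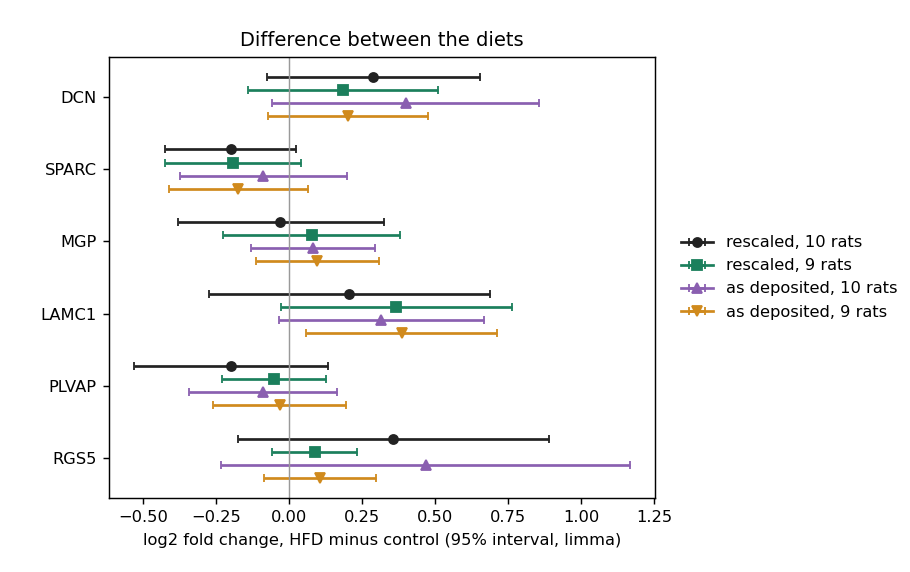
Log2 fold change of each gene, HFD over control, with 95% intervals from limma, for all rats and without control rat 1, in rescaled TPM and in TPM as deposited. The interval of LAMC1 lies above 0, from 0.06 to 0.71, with TPM as deposited and control rat 1 left out, and RGS5 goes from 0.36 to 0.09 when control rat 1 is left out of the rescaled values.

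PLVAP forms the diaphragms that close the pores of fenestrated capillaries, and its levels mark their endothelium (ENSRNOG00000017676). Control rats 1 to 5 had 97.7, 62.7, 53.8, 56.8 and 61.5 rescaled TPM, and HFD-fed rats had 54.4, 55.2, 56.4, 51.0 and 66.9. Control rat 1 had the highest level of all, and the other 9 rats lay between 51.0 and 66.9. The means of 66.5 ± 17.8 and 56.8 ± 5.995 (SD, n = 5 each) gave a log2 fold change of -0.20 with an interval from -0.53 to 0.13. It was -0.05 without control rat 1, with an interval from -0.23 to 0.13. Limma gave a Benjamini-Hochberg adjusted p of 0.611 with all rats and 0.84 without control rat 1, and the exact permutation test, two-sided, gave p = 0.302 and p = 0.579. In TPM as deposited, control rat 1 (72.8) was not the highest, as HFD-fed rat 5 had 75.8. The log2 fold change of PLVAP on that scale was -0.09 with all rats and -0.03 without control rat 1.

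RGS5 is a regulator of G-protein signalling used to mark pericytes and other mural cells (ENSRNOG00000002730). It measured 42.9, 108, 110, 107 and 110 rescaled TPM in the control rats and 101, 118, 115, 129 and 118 in the HFD-fed rats. Control rats 2 to 5 lay within a narrow range, 4 of the 5 HFD-fed rats lay above all of them, and HFD-fed rat 1 lay below them. In TPM as deposited, only HFD-fed rats 4 (142) and 5 (134) lay above control rats 2 to 5 (109 to 115). The means and fold changes that follow are of rescaled TPM. With all rats the means were 95.6 ± 29.5 and 116 ± 10.2 (SD, n = 5 each), and the log2 fold change was 0.36 with an interval from -0.18 to 0.89. Without control rat 1 the control mean was 109 ± 1.85 (SD, n = 4) and the log2 fold change 0.09, with an interval from -0.06 to 0.23. The difference passed no threshold in either (limma, Benjamini-Hochberg adjusted p = 0.592 and 0.618; exact permutation test, two-sided, p = 0.127 and 0.246).

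Without control rat 1, 0 of the 6 genes had an unadjusted limma p under 0.05, against 11.8% of all genes, and no gene of any kind passed Benjamini-Hochberg adjustment, whereas 1445 had an unadjusted p under 0.05. Every HFD-fed rat lay above every remaining control rat for 1.99% of genes and below for 3.10%, and the 6 genes all overlapped. With TPM as deposited the count was 0 of 6 against 5.11% of genes. The intervals leave room for changes in either direction in 5 of the 6 genes in all 4 of these comparisons.

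The order of the levels was MGP, SPARC, DCN, RGS5, PLVAP and LAMC1, with means over all rats of 1102, 373, 176, 106, 61.6 and 11.2 rescaled TPM. They were 69th, 269th, 560th, 895th, 1525th and 5858th by mean among the genes tested. Over the 9 rats without control rat 1 the order was the same, with means of 1061, 370, 182, 113, 57.6 and 10.7. The order held between neighbours in 10 of 10 rats, except that RGS5 exceeded PLVAP in 9 of 10. RGS5 over PLVAP was 0.439 in control rat 1, 1.72 to 2.05 in control rats 2 to 5 and 1.76 to 2.53 in the HFD-fed rats. DCN over PLVAP was 1.19 in control rat 1, 2.24 to 3.76 in the other control rats and 2.39 to 4.11 in the HFD-fed rats. The ranges of the diets overlapped for both ratios once control rat 1 was set aside.

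**Figure D3:**
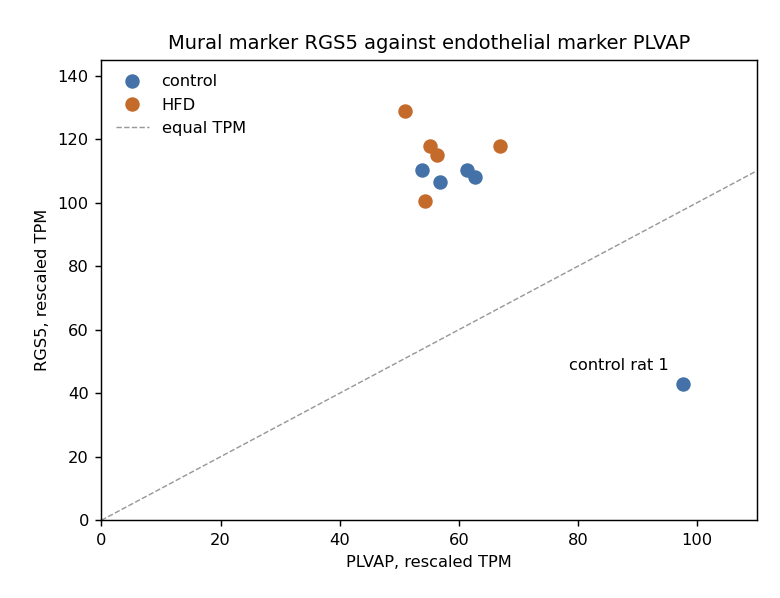
RGS5 against PLVAP in rescaled TPM, with each point a rat and the diets marked. Control rat 1, at 42.9 and 97.7, lies apart from the other 9 rats, whose ratio of RGS5 to PLVAP ran from 1.72 to 2.53.

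The rats of the same diet differed by unequal amounts from gene to gene. Over the 9 rats other than control rat 1, the SD of log2 values within a diet was 0.31 for LAMC1, 0.26 for DCN, 0.24 for MGP, 0.18 for SPARC, 0.13 for PLVAP and 0.10 for RGS5, beside a median of 0.14 over all genes. These SDs are of rescaled TPM, in which RGS5 and PLVAP, the vascular markers, varied less between these rats than the matrix genes did. In TPM as deposited over the same rats, RGS5 still had the lowest SE of the log2 fold change, at 0.087. The SE of PLVAP, at 0.103, then lay between those of MGP (0.096) and SPARC (0.108). Of the 6 genes in rescaled TPM, control rat 1 nevertheless lay farthest from the other rats for these vascular markers. It lay -1.36 on the log2 scale from the median of the other rats for RGS5 and 0.79 for PLVAP, and 8.52% and 22.0% of all genes lay at least as far. For DCN, MGP, LAMC1 and SPARC the distances were -0.64, 0.60, 0.68 and 0.12. In TPM as deposited, RGS5 was -1.80, DCN -1.16, SPARC -0.35, PLVAP 0.31, LAMC1 0.18 and MGP 0.04, so that the direction of SPARC turned with the scaling. Its mean effective transcript length was 789 bases against 874 to 968 in the other rats, whose part in these distances was not tested.

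**Figure D4:**
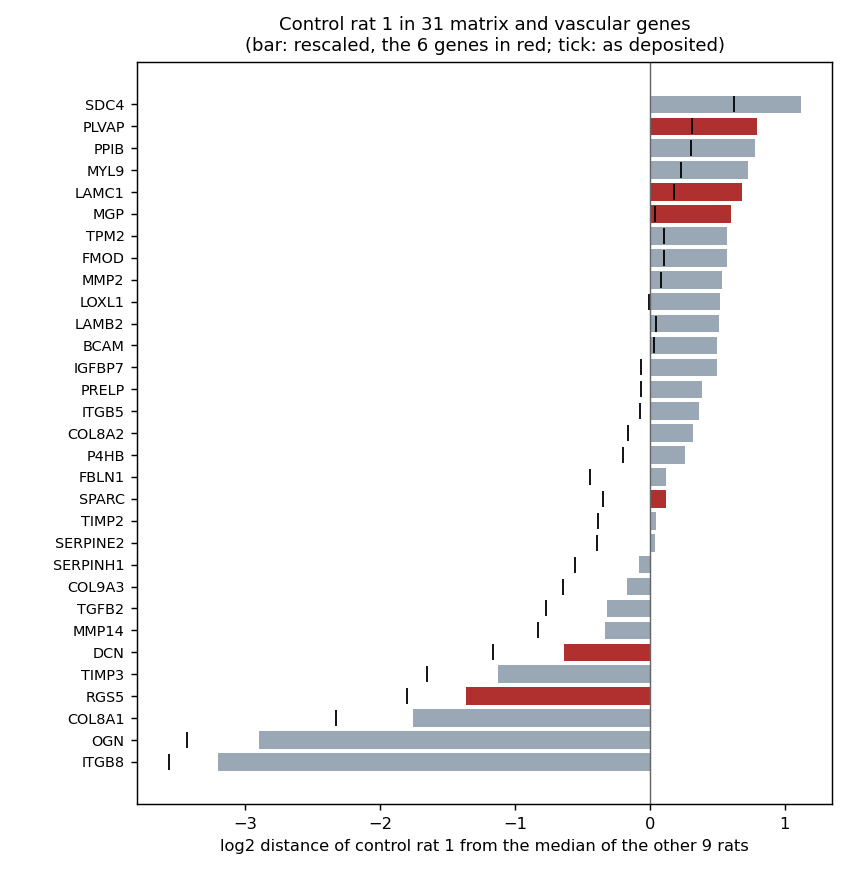
Distance of control rat 1 from the median of the other 9 rats on the log2 scale for 31 matrix and vascular genes, with bars for rescaled TPM, red for the 6 genes, and ticks for TPM as deposited. Of the 6, RGS5 lies lowest on both scales (-1.36 and -1.80), and the bar and tick of SPARC lie on opposite sides of 0 (0.12 and -0.35).

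The wider lists of matrix and vascular genes gave 31 genes with a symbol and a level that could be tested, of 210 listed, so most of each list was not analysed here. With all rats, 0 of the 31 had an unadjusted limma p under 0.05, where 8.94% of all genes did. A positive log2 fold change was seen in 14 of the 31, and in 6243 of the 12198 genes tested. The median was -0.04 over the 31 and 0.006 over all genes tested. Collagens gave 3 of 15 genes, basement membrane genes 2 of 23, small leucine-rich proteoglycans 4 of 12 and matricellular glycoproteins 4 of 30. Collagen synthesis gave 4 of 21, proteases and their inhibitors 5 of 23, matrix receptors 4 of 24 and TGF-beta genes 1 of 18. Marker lists gave 2 of 15 fibroblast, 1 of 20 endothelial and 3 of 16 mural genes. None of these lists had a gene past the unadjusted threshold. TIMP3, an inhibitor of matrix proteases, had the largest positive log2 fold change among the genes named by rule, 0.45 (limma with Benjamini-Hochberg adjustment, adjusted p = 0.556; exact permutation test, two-sided, p = 0.0556). Control rat 1 had 78.2 rescaled TPM of TIMP3 against 147 to 185 in the other control rats, and leaving it out brought the log2 fold change to 0.24 (by the exact permutation test, two-sided, p = 0.111). With TPM as deposited and control rat 1 left out, the log2 fold change of TIMP3 was 0.26, with an interval from 0.05 to 0.47. Its unadjusted limma p there was 0.0186, where 7.12% of all genes passed (Benjamini-Hochberg adjusted p = 0.636; exact permutation test, two-sided, p = 0.0476). Of the genes outside that rule, ITGB8 and COL8A1, picked after their values were seen, had log2 fold changes of 0.69 and 0.46 with all rats and 0.07 and 0.11 without control rat 1.

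Osteoglycin (OGN), a small leucine-rich proteoglycan like decorin, passed the unadjusted threshold without control rat 1 but not with all rats. Its levels were 10.6, 140, 114, 130 and 123 rescaled TPM in the control rats and 79.2, 65.6, 37.1, 31.1 and 35.7 in the HFD-fed rats. Control rat 1 was lowest of all, and every HFD-fed rat lay below control rats 2 to 5, as was so for 3.10% of genes. With all rats the log2 fold change was -0.73 (limma, Benjamini-Hochberg adjusted p = 0.644). Without control rat 1 the means were 127 ± 11.1 (SD, n = 4) and 49.7 ± 21.4 (SD, n = 5), a log2 fold change of -1.45 with an interval from -2.02 to -0.87 and an unadjusted limma p of 0.000202. The Benjamini-Hochberg adjusted p was 0.183, and the exact permutation test, two-sided, gave p = 0.0159. The other gene past the unadjusted threshold there was MYL9, a smooth muscle myosin light chain of the mural list, at a log2 fold change of 0.33 (limma with Benjamini-Hochberg adjustment, adjusted p = 0.36; exact permutation test, two-sided, p = 0.0556). In rescaled TPM without control rat 1, OGN and MYL9 were the only ones of the 31 genes past it, where 11.8% of all genes passed.

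Markers of other cell types differed in control rat 1 in both directions. The sum of the 4 haemoglobin genes measured was 7821 rescaled TPM in control rat 1, 3659 to 6941 in the other control rats and 3089 to 6377 in the HFD-fed rats. Of these genes, HBB (1227) and HBB-BS (348) of control rat 1 lay among the other rats, and HBA-A1 and HBA-A2 lay above them. In TPM as deposited, all 4 haemoglobin genes of control rat 1 lay among the other rats. The sum of 9 epithelial genes, without TTR, was 6599 in control rat 1, 8296 to 9232 in the other control rats and 8537 to 9376 in the HFD-fed rats. ENPP2 (autotaxin), at 2160 in control rat 1 and 3629 to 4393 in the other rats, made up most of that gap. Without it the other 8 genes summed to 4439 in control rat 1 and to 4327 to 4982 in the other rats. This set was chosen after the values were seen, and its sum hid differences in both directions. Of the 9 genes, 6 were lower in control rat 1 than in any other rat. These were ENPP2, KL (274 rescaled TPM), KCNJ13 (511), AQP1 (372), PRLR (80.0) and OTX2 (55.9). TTR, CLIC6 and FOLR1 were higher in control rat 1 than in any other rat, at 533386, 1135 and 1634 rescaled TPM, though in TPM as deposited CLIC6 (845) was lower there than in any other rat and FOLR1 (1217) lay among the others. The fibroblast list held only DCN and OGN with a symbol, so it gave no marker apart from the genes described above. With all rats, 0 of the 4 haemoglobin genes, 0 of the 2 macrophage genes with a symbol (of 11 listed) and 2 of the 10 epithelial genes, KL and HTR2C, both higher in HFD-fed rats, had an unadjusted limma p under 0.05, where 8.94% of all genes did. AQP1 also passed without control rat 1, at a log2 fold change of -0.19, where 11.8% of all genes did. With TPM as deposited HTR2C alone of the epithelial genes passed, where 5.11% of all genes did. The part of these sums in the levels of the 6 genes was not tested, and no neuronal or glial gene of the lists had a symbol.

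**Figure D5:**
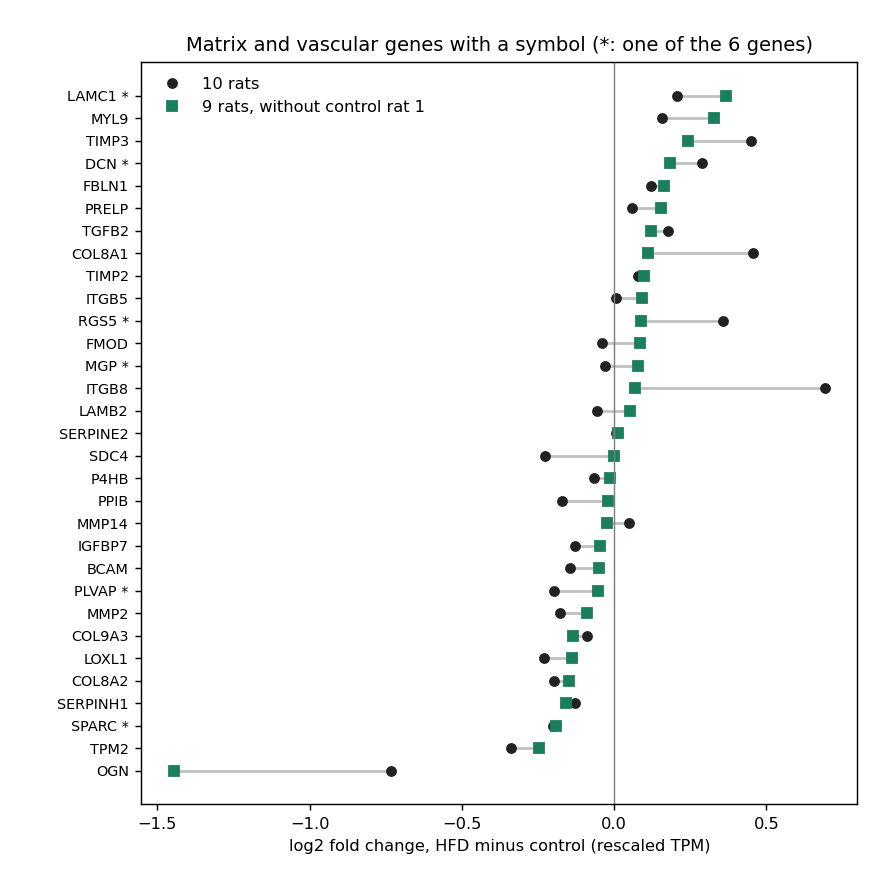
Log2 fold change, HFD over control, of the 31 matrix and vascular genes in rescaled TPM, with circles for all 10 rats and squares for the 9 without control rat 1, joined by a line. An asterisk marks the 6 genes, and OGN lies lowest at -0.73 and -1.45.

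Genes whose levels followed the 6 genes most closely were sought among 2000 named genes, by Pearson's r over rats after centring within each diet, with the smaller of the r over 10 and over 9 rats deciding the order. These values describe how genes varied together over these rats and are not tests. For RGS5 they were ATP6V1A, a subunit of the vacuolar proton pump, with r of 0.995 and 0.927, then MTPN and MOSPD2. PLVAP went with SLC12A4, a potassium-chloride cotransporter, at 0.947 and 0.907, then APLP2 and SLC25A39. MGP went with UQCRH, a subunit of respiratory complex III, at 0.983 and 0.994, then RPL24 and LAMTOR2. LAMC1 went with ANP32A at 0.947 and 0.908, then PFN1 and PTMS. DCN went with CACYBP at 0.856 and 0.831, then KRCC1 and BET1. SPARC went with the metallothionein genes MT1, at 0.863 in both sets of rats, and MT2A, at 0.812 and 0.826, with LOC681410 between them at 0.851 and 0.897.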

How the data were processed

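Choroid plexus RNA of 10 rats was sequenced, 1 library each. Per the labels, the authors aligned reads with STAR 2.7.2a to Rnor_6.0 (rn6) and quantified them with RSEM 1.3.3, and both TPM and FPKM were deposited for every gene. Within a rat the deposited FPKM differ from TPM only by 1 factor, which gave the mean effective transcript length, so TPM were tested. Read counts and depth per library were not used here.

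TPM were divided by each rat's median ratio over 14435 genes. Genes with a mean of at least 1 were fitted with limma 3.58.1 (R 4.3.3, mean-variance trend) on log2(rescaled TPM + 0.1), with diet as its term and the p-values of 12198 genes adjusted by Benjamini-Hochberg. Exact permutation tests, two-sided, compared mean log2 values of single genes. Remaining steps ran in python 3.11.15 with pandas 2.3.3, numpy 2.4.6, matplotlib 3.10.9 and scipy 1.17.1. The fit was tested on simulated data.

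Symbols came from the study's gene tables, of which 1 was shortened, and named 2015 identifiers. 7 symbols with more than 1 identifier were left out. The genes and lists were chosen with earlier results of these data known. Named genes were the 6 genes, those with the highest means in each list, and list genes past an unadjusted p of 0.05. Each library is a separate animal, so p-values measure the spread between rats. Alternatives were TPM as deposited, other scalings, filters and pseudocounts, array weights, a length covariate, the replicate block and each rat left out.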

Additional observations from a re-analysis of the deposited data

Results flagged for a closer look

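In 58 groups of 5 rats, Dixon's test at the 95% level marked 13, and chance alone marks about 1 in 20 groups. The 13 marks were not independent, as in each of them control rat 1 lay apart from the other control rats. Among the stromal and vascular genes it had 1476 rescaled TPM of MGP against 970 to 1081, 97.7 of PLVAP against 53.8 to 62.7 and 42.9 of RGS5 against 107 to 110. The ratio of RGS5 to PLVAP was 0.439 against 1.72 to 2.05. In TPM as deposited, MGP of control rat 1 lay among the other control rats, while PLVAP stayed above them and RGS5 below them.

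In rescaled TPM, control rat 1 was the highest of the 10 rats for 32.8% of all genes tested and the lowest for 33.5%. Standing apart was thus not particular to the stromal and vascular genes. Of the 31 matrix and vascular genes it was highest for 15 (48.4%) and lowest for 8 (25.8%), and of the 6 genes for 1 and 2. These counts hold for rescaled TPM only. In TPM as deposited, PPIB (290.0) and SDC4 (110) alone of those 15 were still highest of the 10 rats. PLVAP (72.8) then lay below HFD-fed rat 5 (75.8), and P4HB was among genes that became lowest. The shares over all genes on that scale are not given here. Matrix genes of the wider lists were among those that stood apart in this rat. It had 88.7 rescaled TPM of LAMB2, a laminin chain, 106 of ITGB5, an integrin chain, 148 of SDC4, a syndecan, 137 of MYL9, 169 of P4HB and 389 of PPIB, each above the other control rats. It had 10.6 of OGN against 114 to 140. Of the epithelial genes, it had 274 of KL, below the others, and 533386 of TTR, above them. These positions are of rescaled TPM and depended in part on the scaling. In TPM as deposited, P4HB of control rat 1 was instead below the other control rats, and ITGB5 lay among them. The other genes named here stayed on the same side of the other control rats, LAMB2 by a small margin.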

How the results depend on the processing

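Read numbers per library were not known, 4 of the 10 listed genes were not analysed, and 1 rat decided several values. The count of genes past a Benjamini-Hochberg adjusted p of 0.05 in limma was 0 in the main analysis, 7 with array weights, 2 with the length covariate and 1 when low genes were not filtered. Genes past the unadjusted threshold numbered 1090, and 624 with TPM as deposited, 671 with a mean of at least 10 and 1921 with array weights. Those lower numbered 667, and 154 with TPM as deposited, 1125 with array weights and 374 with TPM as deposited and control rat 1 left out. Those higher numbered 423, and 652 without a filter, 115 with a mean of at least 10 and 796 with array weights. The share that was higher was 38.8%, and 75.3%, 17.1% and 57.0% with TPM as deposited, with a mean of at least 10, and with TPM as deposited and control rat 1 left out.

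Of the 6 genes, 0 passed the unadjusted threshold, 0 to 1 with a rat left out (DCN without control rat 5, SPARC without HFD-fed rat 1 or 3), where 6.68% to 11.8% of all genes passed. LAMC1 passed with the length covariate (7.38% of genes) and with TPM as deposited and control rat 1 left out (7.12%), 1 of the 6 in each, at log2 fold changes of 0.43 and 0.39. With a rat left out, DCN ran from 0.18 to 0.43, SPARC from -0.24 to -0.12, MGP from -0.153 to 0.077, LAMC1 from 0.077 to 0.367, PLVAP from -0.267 to -0.052, RGS5 from 0.088 to 0.429, FMOD from -0.116 to 0.085, ITGB5 from -0.033 to 0.091, LAMB2 from -0.117 to 0.052, LYZ2 from -0.051 to 0.176, PRELP from -0.028 to 0.155, SDC4 from -0.336 to 0.00 and TTR from -0.182 to 0.037.

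TPM as deposited shifted all genes together, with a median log2 fold change of 0.115 against 0.006, and that shift carried the signs and list medians given for it with all rats. Signs turned for these genes. With TPM as deposited they were MGP 0.081, COL9A3 0.023, FMOD 0.071, LAMB2 0.056, P4HB 0.044 and TTR 0.002. With array weights they were MGP 0.021, FMOD 0.048, LAMB2 0.06 and TTR 0.036. With the length covariate they were MGP 0.134, FMOD 0.108, LAMB2 0.043, LYZ2 -0.01, P4HB 0.004, SDC4 0.024 and TTR 0.083. With TPM as deposited and control rat 1 left out, which was chosen after seeing the data, they were MGP 0.096, FMOD 0.103, LAMB2 0.071, LYZ2 -0.032, P4HB 0.003, SDC4 0.019 and TTR 0.055. List medians moved with TPM as deposited to -0.04 for collagen synthesis, 0.158 for proteases, 0.041 for receptors, 0.18 for epithelial genes, 0.023 for collagens, 0.031 for matricellular genes and 0.199 for the 6 genes, and for receptors to 0.052 with the length covariate and 0.053 with TPM as deposited and control rat 1 left out. The cause of the changes under the other settings was not tested.

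Replicate numbers are shared between the diets. Same-numbered rats had correlations of deviations from -0.04 to 0.12, so no pairing by number was seen. Weak correlations over all genes cannot exclude such a pairing. With the replicate block, limma called 0 genes after adjustment, 1143 had an unadjusted p under 0.05, and 0 of the 6 genes did. Only replicate 5 correlated best with its own number.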

Other observations

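Within the 6 genes, the link between the vascular markers rested on control rat 1. After centring within each diet, Pearson's r of log2 PLVAP and RGS5 was -0.88 over 10 rats and -0.08 over the 9 without control rat 1. SPARC and RGS5 went the other way, from -0.23 over 10 rats to -0.77 over 9, and DCN and LAMC1 from 0.03 to 0.65. These are descriptions over the same rats, 3 of 15 pairs chosen after their values were seen.

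Of the epithelial genes, KL (klotho) had 274, 416, 400.1, 381 and 409 rescaled TPM in the control rats and 417, 445, 463, 448 and 461 in the HFD-fed rats, so that every HFD-fed rat lay above every control rat. Its log2 fold change was 0.26, with an unadjusted limma p of 0.0355 and a Benjamini-Hochberg adjusted p of 0.548. It was 0.15 without control rat 1, with an unadjusted limma p of 0.00979. The unadjusted limma p was 0.0686 with TPM as deposited and 0.0706 with the length covariate, and it missed 0.05 when control rat 4 or any of HFD-fed rats 2 to 5 was left out. HTR2C, a serotonin receptor gene, had a log2 fold change of 0.20, with a Benjamini-Hochberg adjusted p of 0.544 in limma.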
